A study of Mus musculus with 12 samples.

Results

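Transcripts of 10 lymphocyte genes were examined in the hearts of mice given the chemotherapeutic drug cisplatin (CDDP), out of 55885 genes listed in the expression table. The genes were taken by symbol as a set chosen by cell type: Cd3e, Cd3g, Cd8a and Lck for T cells, Cd79a, Cd79b, Ms4a1, Ighm and Igkc for B cells, and Nkg7 for killer cells. The rule used gene names and no measured value, but the set was chosen with earlier results of these data known. The 12 hearts formed 4 groups of 3: Saline (wild type), CDDP (wild type given cisplatin), STING-/- and STING-/-+CDDP. All mice were male, of the C57BL/6J background and 8 weeks old, and hearts were collected on day 22. Cisplatin was injected into the abdominal cavity at 6 mg/kg on days 1, 8 and 15. The methods of the study name the wild-type controls a saline group and do not state what the STING-/- group was given, and the sample labels call both untreated. STING-/- mice lack the DNA-sensing adaptor STING (gene Sting1, Tmem173 in the labels) in the whole body, so the deletion was not limited to heart cells. Each library was made from total RNA of heart tissue, and the labels do not say whether animals were pooled. Nothing in the labels names separate cages or litters, so a p-value here measures the spread between these hearts.

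T cells recognise antigen through a receptor carried to the surface by the CD3 chains, and the kinase LCK starts the signal inside the cell. B cells use a membrane immunoglobulin, in resting cells mostly of the mu class, which signals through the CD79A and CD79B chains. Natural killer cells and cytotoxic T cells store granules of killing proteins. A healthy heart holds few lymphocytes beside its resident macrophages, and blood left in the vessels adds circulating ones. Lymphocytes and their precursors in bone marrow and thymus are known to be sensitive to DNA-damaging drugs. In bulk tissue, fewer cells of a type and less RNA per cell cannot be told apart.

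The signalling chains among the 10 genes share a coding feature that did not enter their choice. It is the immunoreceptor tyrosine-based activation motif, in which a pair of tyrosines is phosphorylated once the receptor is engaged. A search of the GENCODE M21 coding sequences (GRCm38.p6) found 1 such stretch in each of 4 genes, with the tyrosine codons in capitals below. All 4 stretches are 45 bases long and each spans 2 coding exons, so the coordinates include an intron.
Cd3e (chr9:44999549-45000440, minus strand): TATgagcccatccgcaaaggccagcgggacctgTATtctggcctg
Cd3g (chr9:44970735-44971268, minus strand): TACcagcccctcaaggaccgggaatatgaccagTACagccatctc
Cd79a (chr7:24901296-24901469, plus strand): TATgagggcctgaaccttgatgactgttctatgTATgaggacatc
Cd79b (chr11:106311867-106312012, minus strand): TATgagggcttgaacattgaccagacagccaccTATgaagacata

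Ighm and Igkc are constant-region genes of the immunoglobulin heavy mu chain and the kappa light chain, and their levels parted in these hearts. A read over Ighm can come from any B cell or plasma cell that makes the mu class, and one over Igkc from any cell with a kappa light chain. The first 120 coding bases of each, which lie within 1 exon, are given with cysteine codons in capitals.
Ighm (chr12:113422611-113422730, minus strand): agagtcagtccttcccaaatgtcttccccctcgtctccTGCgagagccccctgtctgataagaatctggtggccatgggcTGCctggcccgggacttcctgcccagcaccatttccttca
Igkc (chr6:70726435-70726554, plus strand): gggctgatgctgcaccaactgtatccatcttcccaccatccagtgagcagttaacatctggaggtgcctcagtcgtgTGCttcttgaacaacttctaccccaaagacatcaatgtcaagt

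RefSeq promoters (250 bases before to 50 after the start of transcription, GRCm38.p6) were matched for 6 of the 10 genes, with 7 starts because Lck has 2. The promoters of the kinase gene Lck (the upstream start), of Cd79a and of Nkg7 are shown, 1 for each cell type. Searches covered both strands for the ETS core AGGAAG, the RUNX core TGTGGT, the E-box CAGGTG, the EBF core CCCNNGGG, the octamer ATGCAAAT and the TATA box TATAAA. Of 32851 promoters, these letters occurred in 35.4% for ETS, 16.8% for RUNX, 20.2% for the E-box, 13.7% for EBF, 1.74% for the octamer and 13.6% for the TATA box. Capitals mark the matches, which are a description of letters. The Lck promoter held 3 ETS cores, 1 RUNX core and 1 E-box, the Cd79a promoter 1 ETS core and 1 E-box, and the Nkg7 promoter 1 ETS core and 1 RUNX core. Cd79b, Ms4a1, Ighm and Igkc had no entry.
Lck (chr4:129573592-129573891, minus strand): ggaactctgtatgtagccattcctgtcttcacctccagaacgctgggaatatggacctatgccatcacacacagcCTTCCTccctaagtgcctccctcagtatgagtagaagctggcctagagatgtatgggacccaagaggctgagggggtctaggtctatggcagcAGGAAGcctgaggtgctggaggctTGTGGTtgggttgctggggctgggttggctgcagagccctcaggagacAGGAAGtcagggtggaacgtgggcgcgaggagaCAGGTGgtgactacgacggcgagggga
Cd79a (chr7:24897247-24897546, plus strand): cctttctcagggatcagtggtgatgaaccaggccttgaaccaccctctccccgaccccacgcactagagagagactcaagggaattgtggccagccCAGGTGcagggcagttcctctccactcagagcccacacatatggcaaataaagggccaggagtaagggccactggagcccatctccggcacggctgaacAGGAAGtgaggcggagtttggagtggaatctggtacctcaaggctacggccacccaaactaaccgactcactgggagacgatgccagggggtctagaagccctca
Nkg7 (chr7:43436888-43437187, plus strand): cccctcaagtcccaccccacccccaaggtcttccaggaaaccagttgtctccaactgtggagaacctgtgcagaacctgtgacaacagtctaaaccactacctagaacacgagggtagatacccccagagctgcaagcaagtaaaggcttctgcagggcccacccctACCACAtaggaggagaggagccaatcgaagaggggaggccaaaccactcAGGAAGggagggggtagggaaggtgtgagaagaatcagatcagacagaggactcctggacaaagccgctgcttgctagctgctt

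Expression was deposited as TPM, a measure of transcript abundance scaled for gene length and for the total of each heart, so levels can be set side by side between genes. Read depth is not given by TPM values. The 10 genes were low: their mean over all 12 hearts was 14.4 for Igkc and 7.54 for Ighm, at most 1.14 for the other 8, and lowest for Ms4a1 at 0.0475. Each heart listed 19680 to 21024 genes above 0. Tests were run on log2(TPM + 1) with limma over the 13815 genes that reached a TPM of 1 or more in 3 or more hearts, and a gene was called at a Benjamini-Hochberg adjusted p under 0.05. Only 5 of the 10 genes (Cd3g, Lck, Ighm, Igkc and Nkg7) entered that test. Cd3g, Lck and Nkg7 reached a TPM of 1 in 3, 4 and 5 hearts, none of which had received cisplatin, so their entry into the test depended on the groups where they were high. The other 5 genes were compared by an exact permutation test. With 3 hearts against 3 the smallest two-sided p of that test is 0.1, and for the average effect of cisplatin, permuted within genotype over 400 arrangements, it is 0.005. Differences on the log2(TPM + 1) scale understate the change of such low genes.

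Several properties of single hearts bear on these values. Sting1 stood at a TPM of 6.5 to 12.28 in Saline, 5.62 to 22.11 in CDDP, 2.87 to 5.96 in STING-/- and 3.37 to 4.67 in STING-/-+CDDP hearts, and whether reads can come from the altered allele is not given in the sources used here. Summed transcripts of 4 hemoglobin genes were 4133 to 9289 in Saline hearts against 42.0 to 1270 in CDDP hearts, and 263 to 1462 in STING-/- against 81.5 to 310.0 in STING-/-+CDDP hearts. Red cell markers were therefore lower with cisplatin, and the hemoglobin ranges of the Saline and STING-/- hearts did not overlap. CDDP heart 1 carried a summed 1109 of 8 neutrophil markers, where no other heart exceeded 92.6. Saline heart 2 carried 38939 of 4 atrial markers, where Saline heart 1 had 310.2. Saline heart 1 held the highest value of 8 of the 10 genes and CDDP heart 3 that of the other 2. For the tissue label, 7 cardiomyocyte markers summed to between 21596 and 44550 in every heart. Of 8 genes listed for immature thymocytes and precursors, Dntt, Igll1 and Rag2 were at 0 in all 12. The other 5 were above 0 in at least 1 heart. Rag1 reached at most 0.02, Ptcra 0.10, Vpreb1 0.53 and Arpp21 0.90, and Cd1d1 was at 1.14 to 5.53.

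**Figure D1:**
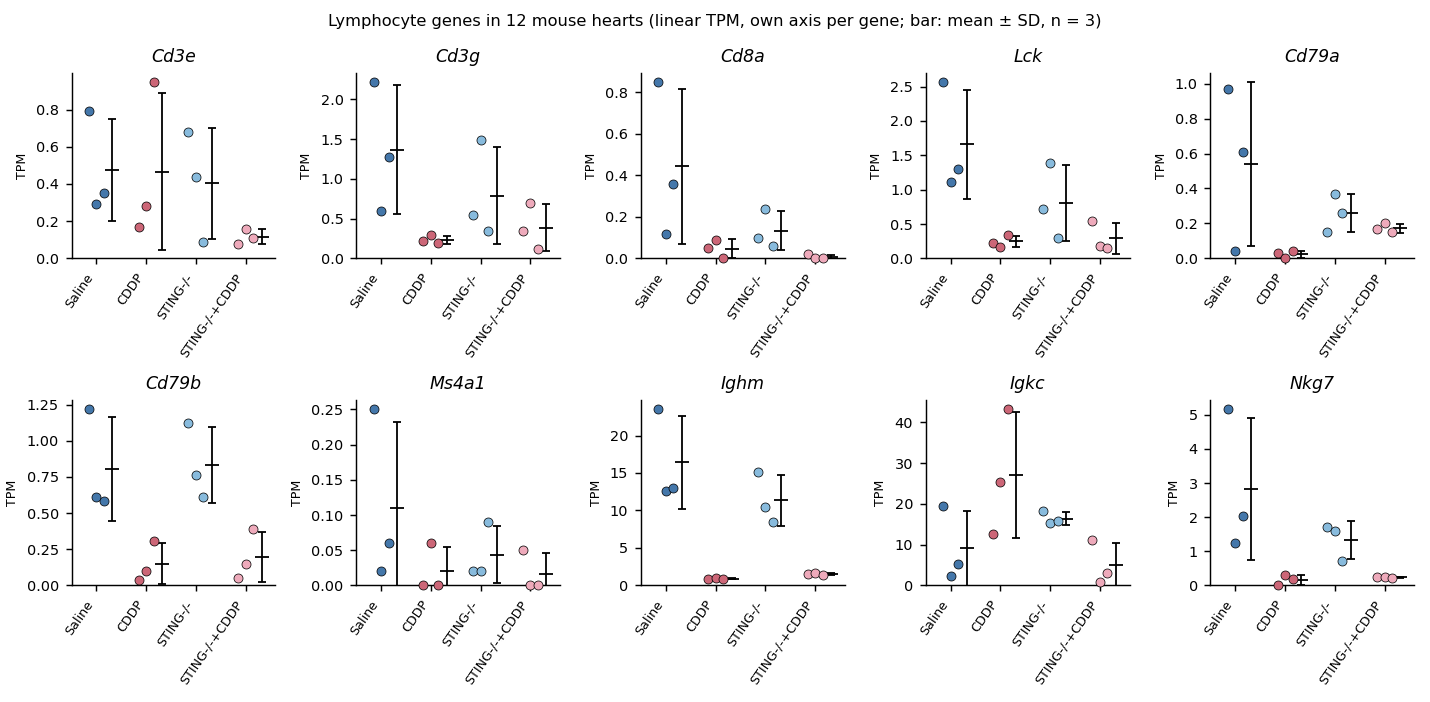
Level of each of the 10 genes in TPM (vertical axis, linear, from 0, with its own scale per gene) in the 4 groups of 3 hearts; each point is 1 heart and the bar is the mean ± SD. Ighm was at 0.82 to 1.68 in the 6 cisplatin hearts and at 8.47 to 23.58 in the 6 others, while Igkc reached its highest value, 43.26, in a CDDP heart.

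Part of the lymphocyte transcripts fell with cisplatin in wild-type hearts. Among the 10 genes, Ighm (mu heavy chain), Nkg7 (a granule membrane protein of cytotoxic cells) and Lck fell in CDDP against Saline hearts, which makes 3 lower and 0 higher calls. Over all tested genes, 10.4% were called lower and 8.52% higher in the same comparison. Nkg7 and Lck entered the test only through hearts without cisplatin, so the count of calls cannot be weighed against these shares. By group means the TPM of Ighm was 18.5 times, that of Nkg7 17.6 times and that of Lck 6.73 times higher in Saline than in CDDP hearts. The ratio of Nkg7 was 10.2 without Saline heart 1, 11.7 without CDDP heart 1 and 29.6 without CDDP heart 2, so single hearts set much of its size. Igkc (kappa light chain) stood apart, with a mean 2.99 times higher in CDDP hearts, a difference that did not pass the test. Leaving out 1 heart gave 2.10 times (without CDDP heart 3) to 7.14 times (without Saline heart 1). For 6 of the 10 genes every CDDP heart lay below every Saline heart, which held for 11.2% of the 27721 genes above 0 in at least 1 heart.

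Among the T cell genes, Lck was at a TPM of 2.57, 1.11 and 1.30 in Saline hearts and at 0.23, 0.17 and 0.34 in CDDP hearts. The groups did not overlap, and the difference of mean log2(TPM + 1) was -1.06 (SE 0.27, n = 3 per group, limma adjusted p = 0.0194). Without Saline heart 1 it was -0.82 with an adjusted p of 0.0810 in limma, so the call rested on that heart. Over all 13815 tested genes the calls fell from 2610 to 1241 in that fit. Cd3g, a CD3 chain, was at 2.22, 0.60 and 1.28 in Saline and at 0.22, 0.29 and 0.19 in CDDP hearts. These also did not overlap, with a difference of -0.88 (SE 0.30, limma adjusted p = 0.0588). Without Saline heart 2, the heart with high atrial markers, the limma adjusted p was 0.0241. Cd8a, the co-receptor of cytotoxic T cells, was at 0.85, 0.12 and 0.36 in Saline hearts and at 0.05, 0.09 and a listed 0 in CDDP hearts. All CDDP hearts were lower, with a difference of -0.43 at the smallest exact p the design allows (0.1). Cd3e, the other CD3 chain, behaved differently. It was at 0.79, 0.29 and 0.35 in Saline hearts and at 0.17, 0.28 and 0.95 in CDDP hearts, so the groups overlapped, and the difference was -0.03 (exact permutation p = 0.8). Cd3e overlaps an antisense gene and a further gene model on its own strand, and Ms4a1 an antisense gene, and the sources used here do not give whether counting used strand.

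Among the B cell genes, Ighm was at 23.58, 12.66 and 13.03 in Saline hearts and at 0.82, 0.95 and 0.89 in CDDP hearts. The CDDP values were close together and far below the lowest Saline heart, with a difference of -3.15 (SE 0.24, limma adjusted p = 1.14e-04). Cd79b was at 1.22, 0.61 and 0.58 in Saline hearts and at 0.04, 0.10 and 0.31 in CDDP hearts, again without overlap (difference -0.64, exact permutation p = 0.1). Its partner chain Cd79a was at 0.97, 0.04 and 0.61 against 0.03, a listed 0 and 0.04. Saline heart 2 was as low as a CDDP heart there, and the difference of -0.54 had an exact permutation p of 0.2. Ms4a1, which codes for the B cell surface protein CD20, was at 0.25, 0.02 and 0.06 against a listed 0, 0.06 and 0. These values overlapped and lay near the lowest that the table can show.

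Igkc was at 19.58, 2.37 and 5.21 in Saline hearts and at 12.70, 25.25 and 43.26 in CDDP hearts. The Saline hearts were spread widely and the highest of them lay above the lowest CDDP heart. The mean was 9.05 ± 9.23 in Saline and 27.1 ± 15.4 in CDDP hearts (SD, n = 3 each), a difference of 1.74 on the log2 scale (SE 0.72, limma adjusted p = 0.115). Leaving out Saline heart 1 gave 2.46 and a limma adjusted p of 0.0487, so 1 heart decided that call. Igkc overlaps a long noncoding RNA gene on the same strand.

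Nkg7 was at 5.17, 1.24 and 2.03 in Saline hearts and at a listed 0, 0.29 and 0.19 in CDDP hearts. Every CDDP heart lay below every Saline heart, and the difference was -1.59 (SE 0.33, limma adjusted p = 0.00774). Fitting only the Saline and CDDP hearts gave a limma adjusted p of 0.0538 for Nkg7 and 0.0590 for Lck, so with that smaller fit only the call of Ighm was kept. Over all 13815 tested genes that fit made 822 calls, against 2610 with all hearts.

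In STING-/- hearts all 10 genes had a lower mean with cisplatin, and Ighm was the one that passed the test. It was at 15.13, 10.41 and 8.47 without and at 1.48, 1.68 and 1.41 with cisplatin, a mean of 11.3 ± 3.43 against 1.52 ± 0.140 (SD, n = 3 each). The ranges were far apart, with a ratio of the means of 7.44 and a difference of -2.26 (SE 0.24, limma adjusted p = 0.00316). In that comparison 0.680% of all tested genes were called lower and 0.253% higher, against 1 lower and 0 higher of the 10 genes. The background itself depended on the scaling, since 27.1% of all calls were higher with the TPM as deposited and 51.0% after median-of-ratios scaling, which moved the median of all genes from -0.11 to 0.01. For 5 of the 10 genes the groups showed no overlap, where 11.2% of genes did so.

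Nkg7 was at 1.70, 1.60 and 0.70 in STING-/- hearts and at 0.25, 0.24 and 0.22 with cisplatin, without overlap but with a limma adjusted p of 0.255 (difference -0.89, SE 0.33). Cd79b was at 1.12, 0.76 and 0.61 without and at 0.05, 0.15 and 0.39 with cisplatin, a difference of -0.61 that nearly equalled the one in wild type. Cd8a was at 0.10, 0.24 and 0.06 without and at 0.02, 0 and 0 with cisplatin. These 3 genes, like Ighm, separated the groups in both genotypes. Igkc was at 18.14, 15.19 and 15.76 without and at 11.06, 0.77 and 2.93 with cisplatin. All 3 cisplatin hearts were lower, the opposite direction to wild type, with a difference of -1.98 (SE 0.72, limma adjusted p = 0.251).

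The other T and B cell genes overlapped in STING-/- hearts. Lck was at 0.72, 1.39 and 0.30 without and at 0.55, 0.18 and 0.15 with cisplatin, and Cd3g at 0.54, 1.49 and 0.34 against 0.34, 0.70 and 0.12 (limma adjusted p = 0.503 and 0.670). Cd3e was at 0.68, 0.44 and 0.09 against 0.08, 0.16 and 0.11, where STING-/- heart 3 was as low as the cisplatin hearts. Cd79a was at 0.15, 0.37 and 0.26 against 0.17, 0.20 and 0.15, and Ms4a1 at 0.02, 0.02 and 0.09 against 0.05 and listed values of 0 and 0. None of these 5 comparisons held up against the spread between hearts.

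**Figure D2:**
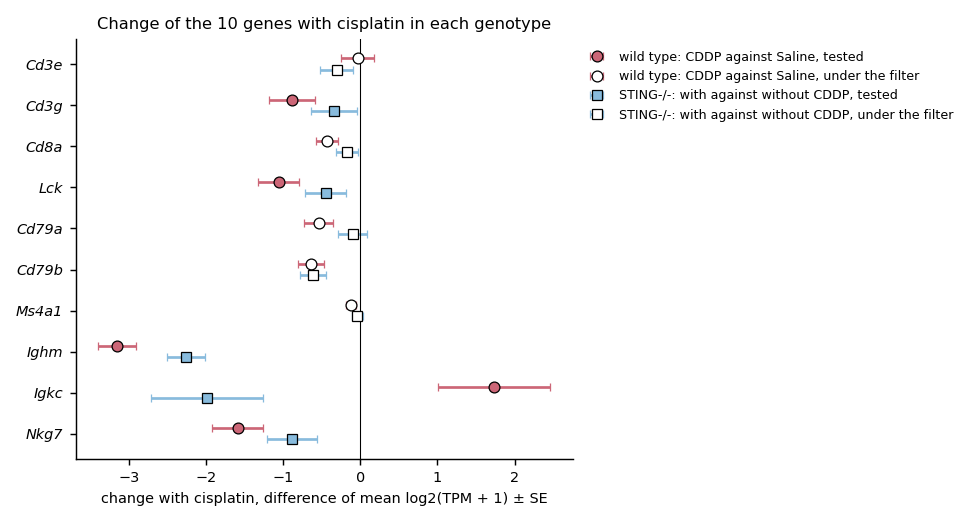
Difference of mean log2(TPM + 1) with cisplatin (horizontal axis, ± SE) for each of the 10 genes, circles for wild-type and squares for STING-/- hearts; filled symbols were tested in limma and open symbols were under the filter, with the SE of a fit without it. In STING-/- hearts all 10 differences were negative, and in wild type 9 were, with Igkc at 1.74.

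Averaged over both genotypes, which gives the smallest spread, Ighm, Nkg7 and Lck were called lower and none of the 10 genes higher. Over all tested genes the shares were 12.6% and 7.28%. The count cannot be weighed against them, since Nkg7 and Lck entered the test only through hearts without cisplatin. The average difference was -2.70 for Ighm (SE 0.17, limma adjusted p = 1.37e-05), -1.24 for Nkg7 (SE 0.23, 0.00412) and -0.75 for Lck (SE 0.19, 0.0177). Of all calls in that comparison 36.7% were higher as deposited and 51.7% after median-of-ratios scaling, and the 3 calls were made under both. Cd3g had -0.61 with a limma adjusted p of 0.0626, and Igkc had -0.12 with 0.893, its differences in the genotypes having opposite signs. The median of the 10 genes was -0.46 and that of all tested genes -0.05.

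The exact permutation test within genotype covered the genes that limma did not. Cd8a (-0.30) and Cd79b (-0.63) reached the smallest p it can give, 0.005, as did Ighm and Nkg7. Lck had an exact p of 0.01, Cd3g 0.03, Cd79a 0.055, Ms4a1 0.14, Cd3e 0.325 and Igkc 0.865, without adjustment for the number of genes. For 4 of the 10 genes the groups were apart in both genotypes, against 4.78% of the genes above 0. All 6 cisplatin hearts lay below all 6 other hearts for Cd79b, Ighm and Nkg7, that is for 3 of the 10, where 3.58% of genes did so.

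The question of whether STING changed these transcripts was addressed in 3 comparisons. Between STING-/- and Saline hearts none of the 5 tested genes was called by limma with 0.0724% of all genes called, and 0 of the 5 had an unadjusted p under 0.05, as 3.69% of all genes did. Ighm, for example, was 11.3 ± 3.43 in STING-/- and 16.4 ± 6.20 in Saline hearts, which overlapped. Between STING-/-+CDDP and CDDP hearts limma again called none of them, where 1.22% of all genes were called, and 1 of the 5 (Igkc) had an unadjusted p under 0.05, as did 19.8% of all genes. The interaction of cisplatin and genotype gave 0 calls in limma among the 5, beside 0.00724% of all genes, and 2 of the 5 (Igkc and Ighm) had an unadjusted p under 0.05, as did 11.7% of all genes.

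Under cisplatin, the direction differed between Ighm and Igkc. Ighm was higher in every STING-/-+CDDP heart than in any CDDP heart, 1.41 to 1.68 against 0.82 to 0.95, a difference of 0.42 (SE 0.24, limma adjusted p = 0.371). Cd79a did the same at 0.15 to 0.20 against at most 0.04, and 4.56% of genes showed such a separation. Igkc was lower in STING-/-+CDDP hearts, at 0.77 to 11.06 against 12.70 to 43.26, with a difference of -2.52 (SE 0.72, limma adjusted p = 0.0994). By group means it was 5.50 times lower. Leaving out 1 heart gave 3.86 times (without CDDP heart 3) to 14.6 times (without STING-/-+CDDP heart 1). Cd3e was also lower without overlap, at 0.08 to 0.16 against 0.17 to 0.95, as were 9.78% of genes. The difference between the cisplatin effects of the genotypes was -3.72 for Igkc (SE 1.02, limma unadjusted p = 0.00363, adjusted p = 0.317) and 0.90 for Ighm (SE 0.35, unadjusted p = 0.0243, adjusted p = 0.379). Neither passed the adjustment.

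The ratio of Ighm to Igkc, each as TPM, brought the parting of these chains into 1 value per heart. It was 1.20, 5.34 and 2.50 in Saline and 0.0646, 0.0376 and 0.0206 in CDDP hearts. In STING-/- hearts it was 0.834, 0.685 and 0.537, and with cisplatin 0.134, 2.18 and 0.481. The CDDP hearts were thus the lowest of the 12, while the STING-/-+CDDP hearts overlapped the STING-/- hearts.

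Other immunoglobulin transcripts were set beside Igkc and Ighm heart by heart. Igha, the constant region of the alpha heavy chain of IgA, was at 7.70, 1.93 and 3.25 in Saline, 3.39, 15.66 and 24.35 in CDDP, 8.77, 6.39 and 6.45 in STING-/- and 4.06, 1.04 and 0.87 in STING-/-+CDDP hearts. CDDP hearts 2 and 3 were the highest of the 12, as they were for Igkc, and all STING-/-+CDDP hearts were below all STING-/- hearts. Its interaction was -2.97 (SE 0.86, limma unadjusted p = 0.00501, adjusted p = 0.321). Jchain, which joins IgA and IgM chains, was at 1.32, 0.13 and 0.50 in Saline, 0.77, 2.07 and 4.56 in CDDP, 1.96, 1.37 and 1.23 in STING-/- and 0.81, 0.29 and 0.28 in STING-/-+CDDP hearts. The summed kappa variable segments (160 genes, chosen after values were seen) were 41.5, 9.36 and 9.99, then 21.97, 48.66 and 82.48, then 33.79, 27.58 and 30.64, and then 12.44, 12.03 and 6.94 in the same order of groups. They came from 13 to 37 segments listed above 0 in Saline, 22 to 38 in CDDP, 22 to 32 in STING-/- and 9 to 16 in STING-/-+CDDP hearts, so more than a few segments contributed in each heart. Near-identical segments can share reads, and single segments are not given.

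**Figure D3:**
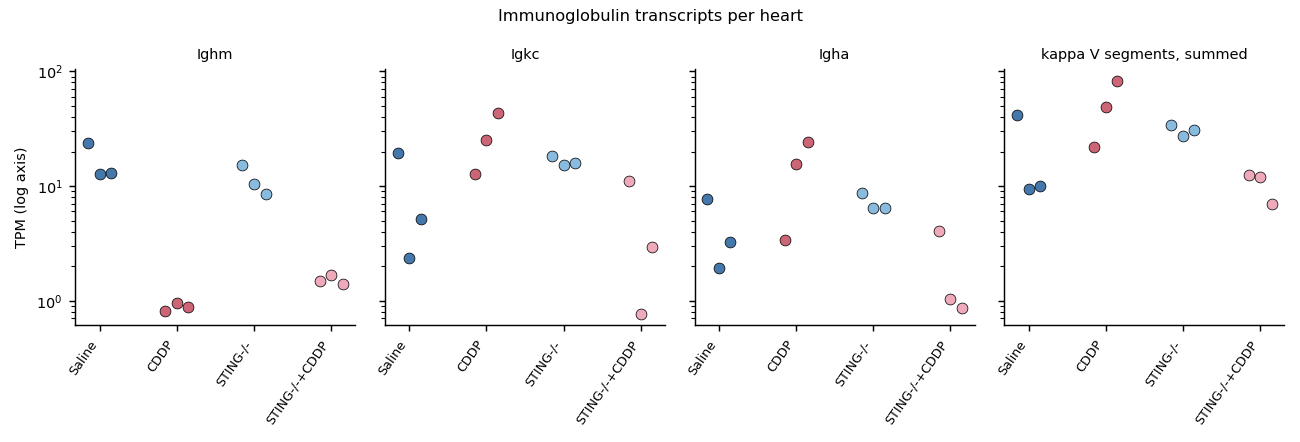
TPM of Ighm, Igkc, Igha and the summed kappa variable segments (vertical axis, logarithmic) in each of the 12 hearts, 1 point per heart, by group. Ighm was lower in all 6 cisplatin hearts, whereas Igkc, Igha and the kappa segments were highest in CDDP hearts 2 and 3 and did not separate CDDP from Saline hearts.

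Further genes of each cell type were taken from lists set by cell type and pathway, and counts refer to the average effect of cisplatin unless stated. Of 23 further T cell genes 6 were tested, of which 3 fell (Thy1, Trac and Trbc2) and none rose, with a median of -0.73 against -0.05 over all tested genes, of which 12.6% were called lower and 7.28% higher. Trac and Trbc2 reached a TPM of 1 in 5 and 4 hearts, none of them given cisplatin, so like Cd3g they entered the test through the groups where they were high. Trac, the constant region of the T cell receptor alpha chain, was at 1.86, 2.16 and 1.55 in Saline, 0.32, 0.64 and 0.86 in CDDP, 0.81, 1.93 and 2.96 in STING-/- and 0.69, 0.27 and 0.44 in STING-/-+CDDP hearts. It was lower in every cisplatin heart than in the controls of its genotype (average -0.88, SE 0.19, limma adjusted p = 0.00886). Trbc2, the beta chain, had an average of -0.92 (limma adjusted p = 0.0154), and Thy1, a surface protein that fibroblasts also carry, one of -1.27 (0.00738). Cd247, the zeta chain, had -0.48 with a limma adjusted p of 0.128. Within STING-/- hearts limma called 0 of the 6, with 2 at an unadjusted p under 0.05, beside 13.5% of all genes.

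Of 23 further B cell genes only 3 were tested, beside 12.6% called lower and 7.28% higher over all tested genes. The 1 that fell was Cd55, a complement regulator present on many cell types (-0.72, limma adjusted p = 0.0467), and none rose. Ebf1, a B lineage factor that stromal cells also express, had -0.49 (0.138) and Cd37, a tetraspanin of leukocytes, -0.31 (0.355), neither past the threshold in limma. Iglc2, a lambda light chain constant region below the filter, was at 0.42 to 2.40 in Saline and at 0 to 0.94 in CDDP hearts. None of the 12 plasma cell genes was called: limma tested 5, with 0 at an unadjusted p under 0.05 where 33.6% of all genes had one, and their median was -0.12. That average joined opposite directions, with a median of 0.38 in wild type and -0.58 in STING-/- hearts. There 2 and 1 of the 5 had an unadjusted limma p under 0.05, beside 33.9% and 13.5% of all genes. For the interaction 2 of the 5 had one, beside 11.7%. Sdc1, a proteoglycan of plasma cells and epithelia, had -0.35 (limma adjusted p = 0.325) and Ighg2c, a gamma heavy chain constant region, -0.14 (0.758).

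The further killer cell genes were lower with cisplatin, as Nkg7 was. All 18 listed had a lower mean log2(TPM + 1) with cisplatin in both genotypes, and for 10 of the 18 the groups were apart in both, beside the 4.78% given for all genes above 0. The same held for 6 of the 23 further T cell, 1 of the 23 further B cell and 0 of the 12 plasma cell genes. It held for 7 of the 20 signalling and 4 of the 21 recruitment genes described below. Summed over the 18, the level was 45.5, 11.8 and 24.0 in Saline, 2.33, 7.26 and 1.89 in CDDP, 11.6 to 20.8 in STING-/- and 4.06, 1.58 and 3.36 in STING-/-+CDDP hearts. Only Ccl5 and Gzma passed the filter, and both fell, beside 12.6% called lower and 7.28% higher over all tested genes. Gzma reached a TPM of 1 in the 6 hearts without cisplatin and in none with it, so it too entered the test through the groups where it was high. Ccl5, a chemokine of cytotoxic T and killer cells, was at 6.76 to 21.55 in Saline and at 1.12 to 4.90 in CDDP hearts, and at 6.73 to 12.24 in STING-/- and 0.58 to 2.45 in STING-/-+CDDP hearts (average -2.16, SE 0.33, limma adjusted p = 0.00150). Gzma, a granule protease, was at 11.27, 1.66 and 4.28 in Saline and at 0.14, 0.73 and a listed 0 in CDDP hearts (average -1.71, SE 0.33, limma adjusted p = 0.00503). Below the filter, Gzmb, another granule protease, was at 0.55 to 2.53 in Saline and 0 to 0.38 in CDDP hearts, and Klrk1, the activating receptor NKG2D, at 0.44 to 1.60 and 0.06 to 0.29. Within STING-/- hearts limma called neither Ccl5 nor Gzma (adjusted p = 0.0614 and 0.254), and both had an unadjusted p under 0.05, as did 13.5% of all genes.

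Genes that carry the signal from the antigen receptor are partly expressed by heart cells themselves. Of 20 listed, 15 were tested, 9 fell and none rose, with a median of -0.50, beside 12.6% lower, 7.28% higher and a median of -0.05 over all tested genes. The largest fall was in Ptprc, the phosphatase CD45 of all leukocytes (-0.92, SE 0.25, limma adjusted p = 0.0251), which was at 5.42 in the neutrophil-rich CDDP heart 1 and at 1.83 and 1.67 in the other CDDP hearts. Cd81 (a partner of the B cell co-receptor that most cells express) fell by 0.47 and Fyn (a kinase related to LCK) by 0.50, with limma adjusted p of 0.0151 and 0.0181. Plcg1, which cleaves a membrane lipid, and Bcl10, an adaptor to NF-kB, had 0.01 and -0.04 and were not called.

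Of 21 genes for lymphocyte recruitment and survival, 19 were tested, 4 fell and 1 rose, with a median of -0.33, so the rise of 1 was near the 7.28% called higher over all tested genes, beside 12.6% called lower. Ccl21a, a chemokine that draws T cells along lymphatic vessels, was at 40.83, 53.45 and 32.97 in Saline, 5.72, 5.52 and 9.14 in CDDP, 55.16, 61.02 and 32.19 in STING-/- and 28.40, 34.82 and 21.22 in STING-/-+CDDP hearts. It was the only gene of the 6 lists called between STING-/-+CDDP and CDDP hearts, higher by 1.91 (SE 0.28, limma adjusted p = 0.0188). The lists held 6, 3, 5, 2, 15 and 19 tested genes, so 1 call was near the 1.22% called over all tested genes. The interaction of Ccl21a, 1.71, did not pass the adjustment (limma adjusted p = 0.286). Near-identical copies of Ccl21a exist in the mouse genome and can share reads. Icam1, an adhesion molecule of vessel walls and leukocytes, rose by 1.29 on average (SE 0.35, limma adjusted p = 0.0256), with 104.5 in the neutrophil-rich CDDP heart 1 and 24.6 and 36.4 in the other CDDP hearts. Cxcl12 and S1pr1, which guide lymphocytes between blood and tissue, had -0.41 and 0.17 with limma adjusted p of 0.166 and 0.421.

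Markers of other cells moved in the same comparisons. In the average effect of cisplatin, 12.6% of all tested genes were called lower and 7.28% higher. Of 10 macrophage markers, 7 were called lower on average, and their summed level was 548 to 768 in Saline, 191 to 354 in CDDP, 550 to 796 in STING-/- and 228 to 457 in STING-/-+CDDP hearts. All 5 tested erythroid markers were lower on average, with summed levels of 4146 to 9318 in Saline and 42.0 to 1271 in CDDP hearts, and their part in the lymphocyte values was not tested. Among further markers, 3 of 5 fibroblast markers (median -1.53) and 3 of 5 endothelial markers (median -0.52) were called lower on average and none higher. The summed fibroblast level nevertheless overlapped, at 774 to 1832 in Saline, 964 to 2051 in CDDP, 895 to 1369 in STING-/- and 645 to 1488 in STING-/-+CDDP hearts. The summed endothelial level was 425 to 504, 289 to 427, 305 to 453 and 292 to 449 in the same order, and the part of these cells in the values was not tested. Within each genotype both Ighm and hemoglobin transcripts were lower with cisplatin, although the hemoglobin ranges overlapped in STING-/- hearts. CDDP heart 1 had 1270 of hemoglobin and 0.82 of Ighm, and STING-/- heart 3 had 263 and 8.47. The part of blood in the Ighm values was not tested. Removing mitochondrially encoded and hemoglobin genes before rescaling raised the number of the 10 genes called in CDDP against Saline hearts from 3 to 4, with Cd3g added. Over all tested genes the calls rose too, from 2610 of 13815 to 3240 of 14360. Cd3g was also called under every other scaling, each of which raised the calls over all tested genes as well.

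**Figure D4:**
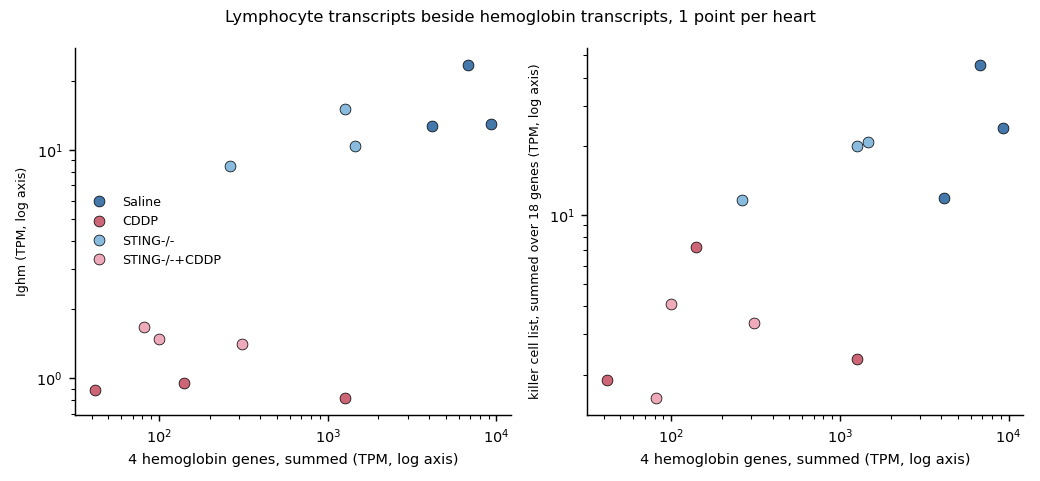
Ighm (left) and the summed 18 killer cell genes (right) in TPM on logarithmic vertical axes, against the summed TPM of 4 hemoglobin genes on a logarithmic horizontal axis; each point is 1 heart, coloured by group. At hemoglobin sums between 263 and 1462 lie all 3 STING-/- hearts, with Ighm at 8.47 to 15.13. CDDP heart 1 (Ighm 0.82) and STING-/-+CDDP heart 3 (hemoglobin 310.0, Ighm 1.41) also lie there. The part of blood in these values was not tested.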

How the data were processed

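Gene expression was measured by RNA sequencing of 12 mouse hearts. The authors deposited TPM values with 2 decimals for each heart; the submitters' processing notes name fastp, HISAT, RSEM and the build GRCm38.p5, without versions, and the use of strand in counting is not given in the sources used here. TPM sums to the same total in each heart, so read depth is unknown, and only the number of hearts limits the precision that can be stated. The table also holds the authors' mean of each group in 4 columns, left out here. Hearts were grouped by the labelled genotype and treatment.

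The 10 genes and all gene lists were chosen with earlier results of these data known. Every one of the 10 was named, and from each lymphocyte list the 4 genes highest in mean TPM plus the largest called rise and fall in the average effect of cisplatin; 1 gene that this rule names is not reported here. Genes that reached a TPM of 1 or more in 3 or more hearts (13815 of 55885) were analysed as log2(TPM + 1) in limma 3.58.1 (R 4.3.3), with 1 coefficient per group, a trended variance prior and Benjamini-Hochberg adjustment over all tested genes. The limma fit was tested on simulated data, and the exact permutation test of 3 against 3 on 1 set of values with a known answer. Gene positions came from GENCODE M21, which held 55227 of the listed identifiers; GRCm38 patch releases share chromosome coordinates. Alternatives changed the pseudocount, filter, samples, scaling, variance prior, weights, replicate block and hearts, and 1 was added after seeing the data. Same-numbered hearts did not deviate together, so replicate numbers were not used as pairs.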

Additional observations from a re-analysis of the deposited data

How the results depend on the processing

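Ighm was called in CDDP against Saline, in STING-/-+CDDP against STING-/- and on average under every alternative run, with adjusted p up to 0.0110, 0.0307 and 2.00e-04. The 3 called genes in CDDP against Saline hearts became 1 with a filter at a TPM of 5, which did not test Lck and Nkg7, and 1 when only the groups compared were fitted, where fewer hearts set the spread. Over all tested genes the calls went from 2610 of 13815 to 2064 of 9427 and to 822 of 13815, in the same order. On average the 3 became 1 with the filter at a TPM of 5 and 5 with a pseudocount of 0.1 and no filter, which added Cd79b, also called without the filter alone (adjusted p = 0.0130), and Cd8a, not called without the filter alone (0.112). Over all tested genes the average calls went from 2740 of 13815 to 2126 of 9427 and to 2309 of 27721, in the same order. Leaving out each heart in turn gave 3 to 4 calls in CDDP against Saline, 3 to 4 on average, 1 in STING-/- hearts and 0 in the other 3 comparisons. Over all 13815 tested genes these fits made 1241 (without Saline heart 1) to 2548 calls in CDDP against Saline. On average they made 1887 to 2653, and in STING-/- hearts 15 to 203. In CDDP against Saline without Saline heart 1, Lck lost its call and Igkc gained a higher one (adjusted p = 0.0487), so those 3 calls were 2 lower and 1 higher. Cd3g gained a lower call there in 2 of 12 fits without 1 heart (Saline heart 2 or STING-/- heart 2) and in 6 of 13 other alternatives, which include every scaling. Over all tested genes the calls rose under every scaling too. They went from 2610 of 13815 to 3810 of 13747 with median of ratios and to 3928 of 13815 with quantile normalization. Leaving out CDDP heart 1 and Saline heart 2 together, chosen after seeing the data, called Cd3g as well (-1.13 in wild type, limma adjusted p = 0.0426) and turned 4 uncalled differences near 0: Cd3e to 0.0234 in CDDP against Saline, Cd79b to -0.0145 and Nkg7 to -0.0028 in STING-/-+CDDP against CDDP, and Cd79b to -0.0430 in STING-/- against Saline.

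Uncalled differences near 0 changed sign when 1 heart was left out; the cause was not tested. These ranges were -0.26 to 0.12 for Cd3e in CDDP against Saline, -0.49 to 0.24 for the average of Igkc, and, in STING-/- against Saline, -0.22 to 0.0905 for Cd3e, -0.0812 to 0.19 for Cd79b and -0.14 to 0.0042 for Ms4a1. In STING-/-+CDDP against CDDP they were -0.0089 to 0.29 for Cd3g, -0.0585 to 0.15 for Cd79b, -0.10 to 0.12 for Lck, -0.0280 to 0.0235 for Ms4a1 and -0.0028 to 0.18 for Nkg7, and for the interaction -0.13 to 0.14 for Cd79b and -0.0087 to 0.14 for Ms4a1. No scaling alternative turned the direction of any of the 10 genes. With the replicate block the counts of called members were 3, 1, 3, 0, 0 and 0 in the 6 comparisons, as without it; over 18 same-numbered pairs the deviations correlated at -0.333 to 0.261, 4 of them over 0.1, and 1 of 12 hearts correlated best with its own number, so the numbers do not pair the hearts.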
